A study of Mus musculus with 12 samples.

Results

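The genes described here carry out the recognition of dying cells by macrophages, and 8 of them were followed through 4 culture conditions: the receptor tyrosine kinases Tyro3, Axl and Mertk (the TAM receptors), the bridging proteins Gas6, Pros1 and Mfge8, and the receptors Timd4 and Stab2. They were taken by gene symbol from a table of 40847 genes measured in 12 libraries, and each of the 8 was in it. The cells were mouse FLAMs, fetal liver alveolar-like macrophages, a cultured cell derived from fetal liver that is used as a model of the macrophage of the lung air sac. Recombinant mouse GM-CSF at 30 ng/ml was in the medium of all 4 groups, so no group shows these genes without it. Untreated cells received nothing more. The TGFβ cells were grown with recombinant human TGFβ1 at 20 ng/ml, the Pam3 cells received the TLR2 ligand Pam3CSK4 at 25 ng/ml for 18 h, and the Pam3+TGFβ cells received both. Each group had 3 libraries. No label says whether these came from separate animals or cultures, so the p-values measure the spread between libraries, which may be technical. The title of the series states its question, which is whether TGFβ changes the answer of these cells to TLR2, and the uptake genes were compared in the same layout.

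Apoptotic cells expose the lipid phosphatidylserine on their surface. TAM receptors do not touch that lipid themselves: the vitamin K dependent proteins Gas6 and protein S (the product of Pros1) bind it at one end and the receptor at the other, Gas6 acting on each TAM receptor and protein S on Tyro3 and Mertk. Mfge8 bridges the lipid to αv integrins, whereas TIM-4 (the product of Timd4) and stabilin-2 (Stab2) bind it directly. Signalling by TAM receptors also dampens Toll-like receptor and cytokine signalling, and lung alveolar macrophages are known for strong Axl expression.

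Library totals ran from 34036650 to 44374115 counts, and levels are given as CPM, the count rate of edgeR after TMM scaling of library sizes. The label of the cells was checked against marker genes. The macrophage markers Adgre1, Csf1r, Cd68 and Lyz2 were present in every group (for Cd68 from 541 to 929 CPM over the 12 libraries). Their means were lower with TGFβ alone than in untreated cells: Adgre1 303 to 145 CPM, Csf1r 983 to 820, Cd68 858 to 549 and Lyz2 29824 to 15248.5. Itgam fell from a mean of 1088 CPM in untreated cells to 38.8 with TGFβ, whereas Fcgr1 went from 81.1 to 91.3. Spi1 went from 562 to 528 CPM and Cd14 from 42.9 to 33.4. The summed level of the 8 macrophage markers was 32044 to 36389 CPM in untreated libraries and 16905 to 17837 with TGFβ, nearly all of it Lyz2. Of 9 alveolar macrophage markers, 7 had a higher mean with TGFβ than in untreated cells, from Siglecf (32.1 to 300 CPM) and Krt79 (0.147 to 52.5) to Chil3, already at 2954 CPM without it (5038 with it). Itgax (335 to 168 CPM) and Fabp4 (31.1 to 0.132 CPM) had lower means. The hepatocyte genes Ttr and Ahsg, the fibroblast genes Col1a2 and Lum and the neutrophil genes Mpo and Retnlg had no count in any library. Other genes of those lists were present: Trf of the hepatocyte list at 916 CPM untreated and 1955 with TGFβ, Afp at 5.77 and 5.90, and, of the neutrophil list, S100a8 at 13.8 and 3.07, S100a9 at 0.253 and 0.993 and Ngp at 0.346 and 0.623. In bulk RNA, fewer cells of a type and less RNA per cell cannot be told apart. Libraries of 1 group were not alike in RNA composition. A ribosomal share was read from 7 genes, among them mt-Rnr1 and mt-Rnr2 but also Lars2, by name no ribosomal RNA gene. These genes took 6.19% of the counts in untreated replicate 3 against 0.288% and 0.351% in the others. They took 0.195% in TGFβ replicate 2 against 6.22% and 8.21%, and 0.238% in Pam3 replicate 1 against 4.998% and 7.80%. In Pam3+TGFβ they took 0.392% to 1.63%. Without untreated replicate 3, TGFβ replicate 2 and Pam3 replicate 1, the share was low in untreated and Pam3+TGFβ and high in TGFβ and Pam3. RNA composition and group can then not be told apart, so that fit does not separate them. Calls of the 8 genes that are lost without those 3 libraries are named with the gene. Those of other pathway genes are named with the counts of calls, and the interactions of those genes were not read in that setting.

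The 8 genes fell into a group that was abundant in every library and a group near the limit of detection. Axl, Mertk, Pros1 and Mfge8 had 10 counts or more in each of the 12 libraries. Tyro3 reached 10 counts in 7 libraries, Gas6 and Timd4 in 6 and Stab2 in 4, nearly all without TGFβ, so these 4 passed the filter on low counts through the groups where they were high. Genes were compared with each other per kilobase of exon, a length taken over the exons of all annotated transcripts. Which transcripts were present was not determined, so levels compared between genes are approximate. The untreated means were 161 CPM per kb for Axl, 58.6 for Mfge8, 46.4 for Mertk, 25.9 for Pros1, 0.508 for Timd4, 0.373 for Gas6, 0.148 for Tyro3 and 0.0366 for Stab2. By group mean the order Axl, Mfge8, Mertk, Pros1 was the same in each of the 4 groups. In Pam3+TGFβ, Mfge8 and Mertk overlapped (means of 48.4 and 47.3 CPM per kb), and Mertk was the higher in replicates 1 and 3. By mean CPM over the 12 libraries, Axl ranked 51st of 14749 tested genes, Mfge8 656th, Mertk 808th and Pros1 1882nd.

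**Figure D1:**
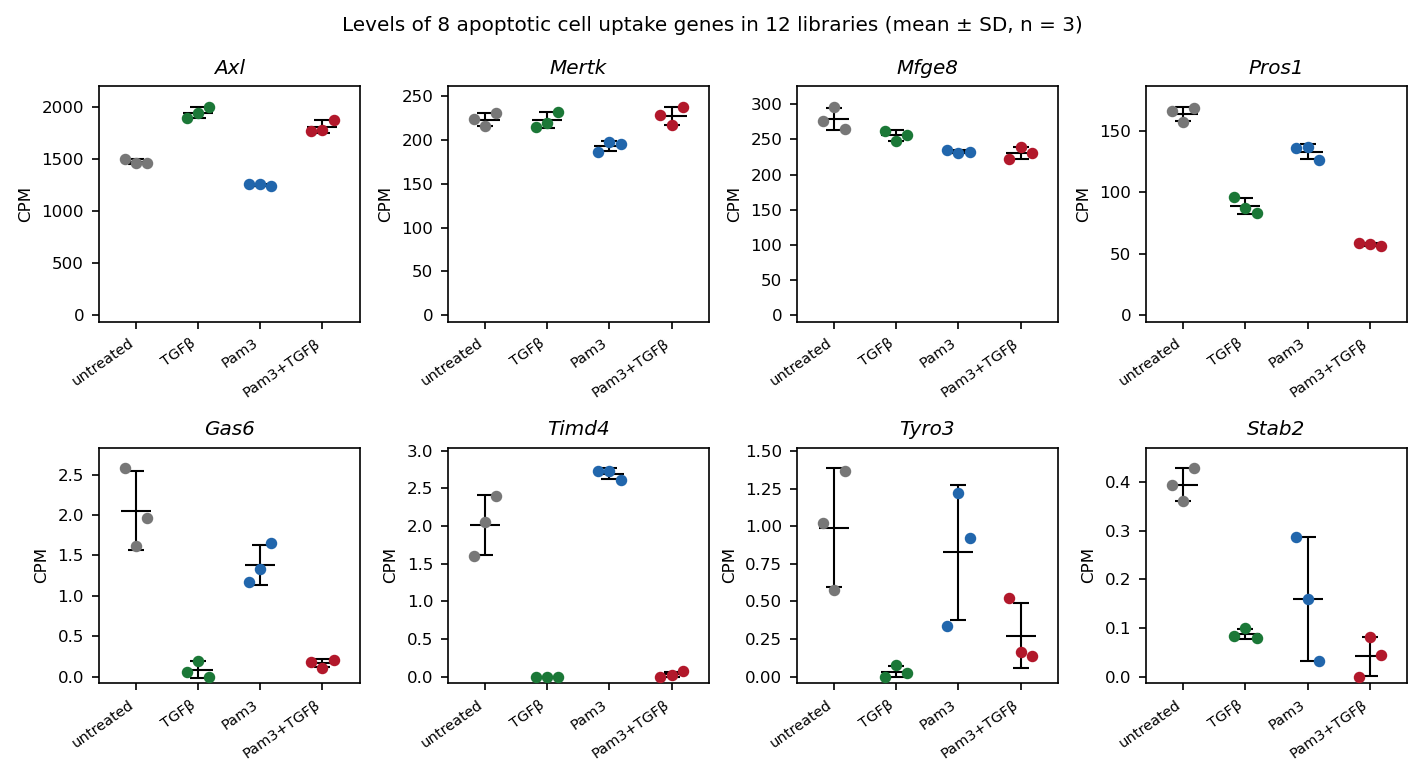
Level of each of the 8 uptake genes in CPM (vertical axis, linear, a different range per panel) in the 4 groups of 3 libraries. Points are libraries, and the bar and whiskers are the mean ± SD (n = 3). Axl was highest in the 2 groups with TGFβ and Pros1 lowest there, and Gas6, Timd4 and Tyro3 lay near 0 with TGFβ alone.

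TGFβ without Pam3 raised Axl and lowered Pros1. Axl rose from a mean of 1478 ± 21.4 to 1949 ± 55.3 CPM and Pros1 fell from 164 ± 5.66 to 88.5 ± 6.63 CPM (SD, n = 3). The scarce genes Gas6, Tyro3, Timd4 and Stab2 had at most 8 counts in any library with TGFβ alone. Of the 8 genes, 7 were called at an adjusted p under 0.05 (1 higher, 6 lower), where 51% of all genes tested passed (22.9% up and 28.1% down). Tyro3, Gas6, Timd4 and Stab2, which are 4 of these 7, passed the filter on low counts through groups without TGFβ, so their place in this and the other counts against cells without TGFβ was partly fixed by the filter and supports nothing. Fitted with no filter, the calls of Tyro3, Gas6 and Timd4 for TGFβ without Pam3 were also made, and that of Stab2 was not (-2.14, adjusted p 0.0892). With Pam3 present, TGFβ gave 6 calls of 8 (Axl and Mertk higher, Tyro3, Gas6, Pros1 and Timd4 lower), against 45.3% of all genes (21.5% up and 23.8% down). The Pam3 response without TGFβ gave 4 calls, all lower (Mertk, Axl, Pros1 and Mfge8), against 18.3% of all genes (9.62% up and 8.66% down), and the Pam3 response with TGFβ gave 3 (Tyro3 higher, Pros1 and Mfge8 lower), against 38.5% (20.4% up and 18.1% down). Both agents together against no agent gave 7 calls (1 up, 6 down), beside 52.1% of all genes (25% up, 27.2% down), and TGFβ against Pam3 gave 7 (3 up, 4 down), beside 54% (24.5% up, 29.6% down). The comparisons share libraries, so these counts are not independent of each other.

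Axl encodes the TAM receptor with the highest level per kilobase in each group. It stood at 1503, 1466 and 1465 CPM in the untreated libraries, 1895, 1946 and 2006 with TGFβ, 1258, 1261 and 1244 with Pam3, and 1771, 1787 and 1883 with Pam3+TGFβ. Every library with TGFβ was above every library without it, and the Pam3 libraries were the lowest of the 12. TGFβ raised Axl by 0.40 on the log2 scale without Pam3 (SE 0.0501, adjusted p 2.43e-07) and by 0.53 with it (SE 0.0502, adjusted p 2.01e-09). Pam3 lowered Axl by -0.24 in cells without TGFβ (SE 0.0501, adjusted p 0.00113). With TGFβ the Pam3 response was -0.10 (SE 0.05, adjusted p 0.108), although the Pam3+TGFβ libraries did not overlap those of TGFβ alone. It was called under upper-quartile scaling (-0.17, adjusted p 0.0101), with DESeq2 and without Pam3+TGFβ replicate 3 or untreated replicate 1. The interaction, which is the Pam3 response in TGFβ cells less the one in cells without TGFβ, was 0.13 (SE 0.0708, adjusted p 0.241). In the order of its levels (TGFβ, Pam3+TGFβ, untreated, Pam3) only the first neighbours did not differ by this test.

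Mertk, the TAM receptor best known from uptake of dying cells by resting macrophages, was lowest with Pam3 alone. Its libraries were at 223, 216 and 230 CPM untreated, 215, 220 and 232 with TGFβ, 186, 197 and 195 with Pam3, and 228, 217 and 238 with Pam3+TGFβ. Untreated, TGFβ and Pam3+TGFβ libraries overlapped, and the Pam3 libraries lay below all of them. Mertk fell by 0.21 with Pam3 in cells without TGFβ (SE 0.0454, adjusted p 0.00137) and was at 0.03 with Pam3 in cells with TGFβ (SE 0.0453, adjusted p 0.590; -0.03 under upper-quartile scaling). The interaction was called (0.25, SE 0.0641, adjusted p 0.00831), one of 2 such genes among the 8, where 15.9% of all genes had a called interaction (10.3% up and 5.67% down). TGFβ raised Mertk when Pam3 was present (0.24, SE 0.0454, adjusted p 9.83e-05) and gave -0.01 in its absence (SE 0.0453, adjusted p 0.921). The interaction and the Pam3 response of Mertk depended on a few libraries: without the 3 libraries of differing RNA composition the Pam3 response was -0.16 (adjusted p 0.0896) and the interaction 0.17 (adjusted p 0.211), neither called, and the interaction also lost its call without Pam3+TGFβ replicate 3 or TGFβ replicate 1 (range over single libraries left out 0.19 to 0.28). In the fit without the 3 libraries, RNA composition went with group, so it cannot tell them apart. With the ribosomal share as a covariate both calls held. The Pam3 response kept its call with each single library left out, and the TGFβ effect with Pam3 kept its call there and without the 3 libraries (0.21, adjusted p 0.00433).

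Tyro3, the TAM receptor better known from the nervous system, was scarce. It had 39, 24 and 48 counts in the untreated libraries, 0, 3 and 1 with TGFβ, 13, 46 and 29 with Pam3, and 18, 6 and 6 with Pam3+TGFβ. The TGFβ libraries lay below those of each other group, while Pam3 and Pam3+TGFβ overlapped. Its summed rate was 27.8-fold lower with TGFβ than in untreated cells (95% counting interval 10.6 to 104, log2 fold change -4.71, SE 0.824, adjusted p 3.14e-05), and the log2 fold change was -5.87 without TGFβ replicate 2. With both agents it was 7.42-fold higher than with TGFβ alone (interval 2.62 to 29.0, log2 fold change 2.84, SE 0.889, adjusted p 0.0129), a call lost without Pam3+TGFβ replicate 1 (1.98) or TGFβ replicate 1 (2.31). Without TGFβ replicate 2 it was 4.004. The lower level in Pam3+TGFβ than in Pam3 (log2 fold change -1.61, SE 0.638, adjusted p 0.0422) was lost in 9 of the other settings, 6 of them with 1 library left out (range over single libraries left out -2.46, without Pam3+TGFβ replicate 1, to -1.20, without Pam3 replicate 2), and with the replicate number as a block it was -1.60 (adjusted p 0.0691). The interaction of Tyro3 was 3.10 (SE 1.07, adjusted p 0.0503), just short of a call, and was called in 8 other settings, among them DESeq2, no filter and the ribosomal share as a covariate. It ran from 2.23 to 4.26 when single libraries were left out. Without the 3 libraries of differing RNA composition it was 3.58 and not called (adjusted p 0.108). Intervals from counts here and below cover counting error only.

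The balance of the TAM receptors was read within each library, where the scaling of libraries plays no part. The size of the shares and ratios depends on the exon lengths used (9.18 kb for Axl and 4.808 kb for Mertk). The log2 difference of a ratio between groups does not. Per kilobase, Axl made up 77.6% ± 0.648 of the summed 3 receptors in untreated cells and 77.3% ± 0.608 after Pam3, against 82.1% ± 0.208 with TGFβ and 80.7% ± 0.453 with both agents (SD, n = 3). The share of Tyro3 was 0.0714% ± 0.0283 in untreated cells and 0.00193% ± 0.00219 with TGFβ. The TGFβ value rested on few counts, with 0%, 0.00431% and 0.00147% in replicates 1 to 3. The ratio of Axl to Mertk per kilobase was 3.33 to 3.56 in untreated libraries, 4.52 to 4.64 with TGFβ, 3.34 to 3.54 with Pam3 and 4.07 to 4.31 with both. The ranges with TGFβ lay wholly above those without. On the log2 scale the ratio was higher by 0.41 with TGFβ alone and by 0.29 when TGFβ was added to Pam3 (exact permutation test, two-sided, p = 0.1 for each, the smallest that 3 against 3 libraries allow). The Pam3 response of the ratio was -0.03 without TGFβ (exact p = 0.8) and -0.14 with it (exact p = 0.1). These are 4 of 8 ratio comparisons, and none can pass 0.05 in this design.

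**Figure D2:**
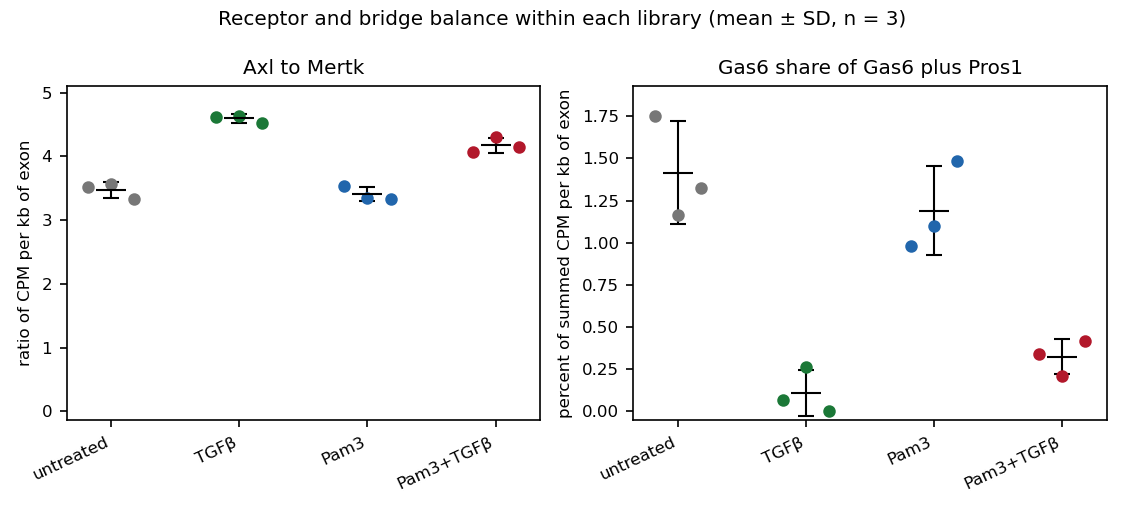
Left, ratio of Axl to Mertk in CPM per kb of exon; right, Gas6 as a percent of Gas6 plus Pros1 in CPM per kb, in the 4 groups. Points are libraries, bars and whiskers the mean ± SD (n = 3). With TGFβ the Axl to Mertk ratio was above 4 in each of 6 libraries, and the Gas6 share was below 0.5%.

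Among the bridging proteins, the gene of protein S, Pros1, differed between every pair of the 4 groups. The untreated libraries were at 166, 157 and 168 CPM, the Pam3 libraries at 136, 137 and 126, the TGFβ libraries at 95.7, 87.1 and 82.7 and the Pam3+TGFβ libraries at 58.4, 58.0 and 56.0. No 2 groups overlapped, and each step in that order was called. TGFβ lowered Pros1 by -0.89 without Pam3 (SE 0.0554, adjusted p 5.91e-13) and by -1.21 with it (SE 0.0563, adjusted p 2.11e-15). Pam3 lowered it by -0.30 without TGFβ (SE 0.0548, adjusted p 0.000214) and by -0.62 with TGFβ (SE 0.0561, adjusted p 1.22e-09). The interaction of -0.32 (SE 0.0783, adjusted p 0.00470) ran from -0.39 to -0.28 when single libraries were left out, each of them called, and was not called when only changes beyond 0.5 were tested for. Against untreated cells, both agents together gave -1.51 (SE 0.0565, adjusted p 1.51e-17). If the effects of the single agents multiplied, the mean with both would be 71.8 CPM, and the measured mean was 57.5 ± 1.31 (SD, n = 3).

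Gas6, which encodes the other TAM ligand, was present at about 2 CPM in untreated cells and near 0 with TGFβ. Its counts were 98, 67 and 69 in untreated libraries, 45, 50 and 52 with Pam3, 2, 8 and 0 with TGFβ, and 6, 4 and 9 with both. No library with TGFβ reached the counts of any without. The summed rate was 23.4-fold lower with TGFβ (counting interval 12.5 to 49.5, log2 fold change -4.52, SE 0.570, adjusted p 2.57e-07; -6.06 without TGFβ replicate 2 and -3.93 without TGFβ replicate 3) and 8.34-fold lower in Pam3+TGFβ than in Pam3 cells (interval 5.16 to 14.2, log2 fold change -3.06, SE 0.525, adjusted p 2.79e-05). The Pam3 response was not called without TGFβ (-0.57, SE 0.428, adjusted p 0.418) or with it (0.89, SE 0.685, adjusted p 0.337). The latter and the interaction (1.46, adjusted p 0.264) depended on TGFβ replicate 2, which held 8 of the 10 Gas6 counts of its group. Without that library they were 2.44 (adjusted p 0.0308) and 3.01 (adjusted p 0.0328). Without TGFβ replicate 3 the Pam3 response with TGFβ was 0.31 (adjusted p 0.758). The interaction ran from 0.88 to 3.01 when single libraries were left out. Of the summed CPM per kb of Gas6 and Pros1, Gas6 made up 1.41% ± 0.305 in untreated cells and 1.19% ± 0.264 after Pam3, against 0.109% ± 0.135 with TGFβ and 0.323% ± 0.103 with both agents (SD, n = 3). The log2 ratio of Gas6 to Pros1 was lower by -4.25 with TGFβ alone and by -1.82 when TGFβ was added to Pam3 (exact permutation test, two-sided, p = 0.1 for each). These ratios have 0.5 counts added to each gene, and TGFβ replicate 3 had no Gas6 count, so that without it the first value was -3.23, and without TGFβ replicate 2 it was -5.19. With 1 CPM added to both genes instead, the values became -0.60 and 0.16, so their size and, for the latter, the direction depended on the added amount.

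Mfge8, the bridge to integrins, changed little. Its libraries were at 276, 296 and 265 CPM untreated, 263, 248 and 257 with TGFβ, 235, 231 and 232 with Pam3, and 221, 240 and 231 with Pam3+TGFβ. The untreated libraries were the highest, and both groups with Pam3 overlapped each other. Pam3 lowered Mfge8 by -0.26 without TGFβ (SE 0.0442, adjusted p 8.40e-05) and by -0.15 with it (SE 0.0442, adjusted p 0.00929). The decrease with TGFβ alone was -0.13 (SE 0.0441, adjusted p 0.0179) and lost its call in 7 other settings, among them upper-quartile scaling and the fit without the 3 libraries of differing RNA composition (-0.13, adjusted p 0.0707). With Pam3 present, the TGFβ effect was -0.01 (SE 0.0442, adjusted p 0.841). An antisense lncRNA of the annotation, Gm73905, covers 8.82% of the exon bases of Mfge8, and the strand setting used in counting is not given in the sources used here.

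**Figure D3:**
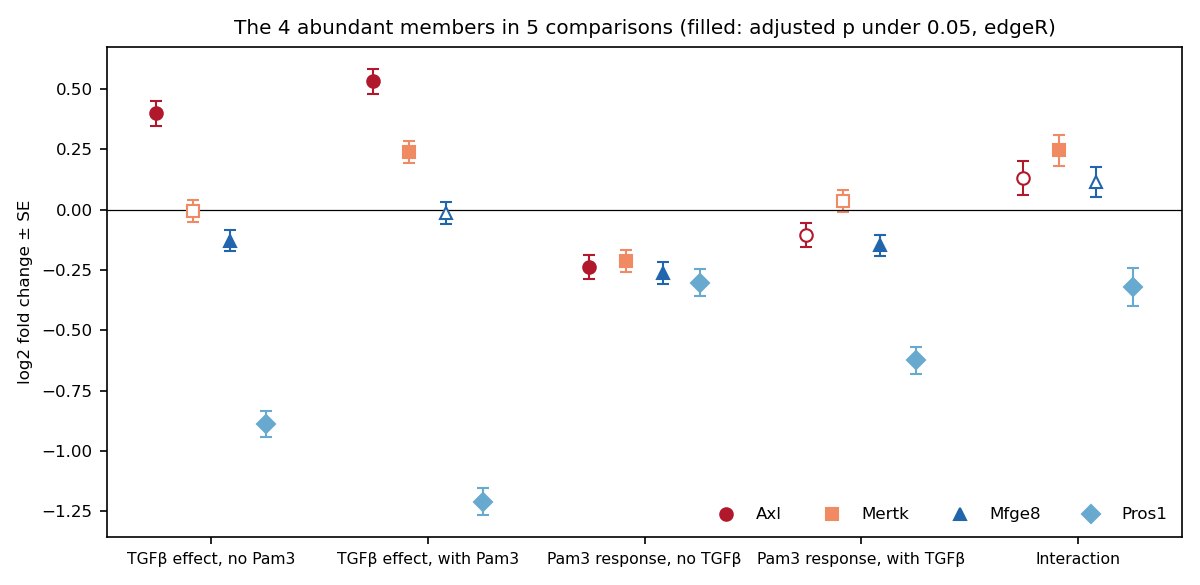
log2 fold change ± SE (vertical axis) of Axl, Mertk, Mfge8 and Pros1 in 5 comparisons fitted with edgeR on 12 libraries. Filled symbols passed an adjusted p of 0.05. Axl was above 0 and Pros1 below 0 in both TGFβ effects, and the interaction of Mertk (0.25) and Pros1 (-0.32) had opposite signs.

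Timd4, a marker of resident tissue macrophages, had counts in every library without TGFβ and none with TGFβ alone. It had 61, 85 and 84 counts in the untreated libraries and 105, 103 and 82 with Pam3, against 0, 0 and 0 with TGFβ and 0, 1 and 3 with Pam3+TGFβ. All 6 libraries without TGFβ were above all 6 with it. Set against a floor of 3 counts per library, Timd4 was at least 25.6-fold lower with TGFβ than in untreated cells (adjusted p 5.20e-10). With Pam3 present its summed rate was 78.2-fold lower with TGFβ (counting interval 30.2 to 289, log2 fold change -6.17, SE 0.531, adjusted p 1.00e-09). Pam3+TGFβ replicate 3 held 3 of the 4 counts of its group, and without it the log2 fold change was -7.28. The Pam3 libraries (2.61 to 2.73 CPM) lay above the untreated ones (1.60 to 2.40 CPM), a difference of 0.42 on the log2 scale that did not pass the test (SE 0.335, adjusted p 0.458). Even in the Pam3 group, where it was highest at 2.69 ± 0.0736 CPM (SD, n = 3), Timd4 reached 0.679 CPM per kb beside 40.1 for Mertk.

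Stab2, best known from liver sinusoidal endothelium, was at the edge of detection. It had 15, 15 and 15 counts in the untreated libraries, 3, 4 and 3 with TGFβ, 11, 6 and 1 with Pam3 and 0, 3 and 2 with both. Its summed rate was 4.51-fold lower with TGFβ (counting interval 2.24 to 10.0, log2 fold change -2.14, SE 0.781, adjusted p 0.0248), and this call was lost in 7 other settings, among them the fit without the 3 libraries of differing RNA composition (-2.17, adjusted p 0.0960). Of the other comparisons, the 1 called was that of both agents against untreated cells (-3.11, SE 0.862, adjusted p 0.00377; -3.81 without Pam3+TGFβ replicate 2). Endothelial genes were read beside it: Oit3 had means of 0.702, 0.0257, 0.582 and 0.0969 CPM and Kdr of 0.865, 0.0820, 0.944 and 0.526 CPM in untreated, TGFβ, Pam3 and Pam3+TGFβ cells, whereas Pecam1 (0.895, 2.46, 1.03 and 2.77 CPM) and Flt4 (0.380, 1.40, 0.510 and 3.21 CPM) had higher means with TGFβ. Of the 8 endothelial genes listed, 5 were abundant enough to be tested, their summed level (166 to 170 CPM untreated, 70.3 to 86.2 with TGFβ, 157 to 183 with Pam3, 125 to 139 with both) was nearly all Fcgr2b, which macrophages also express, and the defining genes Tek and Tie1 had at most 3 counts in any library. Of 8 genes of Kupffer cells or fetal liver macrophages, 4 were tested, and their summed level was 86.2 to 94.99 CPM in untreated libraries, 46.6 to 51.4 with TGFβ, 55.4 to 59.0 with Pam3 and 49.1 to 52.9 with both, nearly all of it Slc40a1 and Nr1h3. Clec4f, which defines Kupffer cells, had no count in untreated or Pam3 cells and a mean of 1.09 CPM with TGFβ, whereas Slc40a1 went from 49.7 to 11.7 CPM and Cdh5 from 0.888 to 0.0514. Of the platelet list, Ppbp (6.03, 0.0494, 9.09 and 0.123 CPM in untreated, TGFβ, Pam3 and Pam3+TGFβ cells) and Pf4 (1.52, 0.247, 4.05 and 0.600) were lower with TGFβ. Gp1ba of that list was higher (1.73, 3.52, 1.46 and 1.94). Of the mast cell list, Cpa3 was lower (0.599, 0.0334, 0.406 and 0.0452) and Gata2 higher (0.102, 0.734, 0.105 and 0.599). The part of any of these cell types in the values of Stab2, Timd4 and the other scarce genes was not tested.

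The start-site regions of the 8 genes were read for short letter patterns. Promoters of 300 bases (250 before and 50 after the start of transcription) came from RefSeq (GRCm38.p6), which held 1 for each of the 8 genes, and each was found once, letter for letter, near its gene on GRCm39. The patterns searched on both strands were CAGACA (SMAD type), GAAANNGAA (interferon response element type), TTCNNNGAA (STAT type), TGANTCA (AP-1 type), GGGNNTTCC (NF-kB type) and GAGGAA (PU.1 type). They occur in 21.0%, 8.56%, 8.3%, 7.81%, 5.82% and 28.3% of 32851 promoters of the same length. CAGACA was present in 3 of the 8, namely Timd4, Gas6 and Stab2, and absent from Tyro3, and with 8 promoters nothing is read from that count. The promoters of these 3 are shown to give the place of the match, with that of Pros1, which holds a STAT type match. Capitals mark the matches. The regions are chr11:46701376-46701675 (plus strand), chr8:13544486-13544785 (minus), chr10:86843757-86844056 (minus) and chr16:62674420-62674719 (plus) of GRCm39.
Timd4: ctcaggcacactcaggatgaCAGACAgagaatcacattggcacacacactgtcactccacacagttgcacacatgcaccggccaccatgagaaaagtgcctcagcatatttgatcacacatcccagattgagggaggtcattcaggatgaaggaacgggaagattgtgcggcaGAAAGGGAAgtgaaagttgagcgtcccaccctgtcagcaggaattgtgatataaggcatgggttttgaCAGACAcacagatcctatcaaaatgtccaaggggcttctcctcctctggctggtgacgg
Gas6: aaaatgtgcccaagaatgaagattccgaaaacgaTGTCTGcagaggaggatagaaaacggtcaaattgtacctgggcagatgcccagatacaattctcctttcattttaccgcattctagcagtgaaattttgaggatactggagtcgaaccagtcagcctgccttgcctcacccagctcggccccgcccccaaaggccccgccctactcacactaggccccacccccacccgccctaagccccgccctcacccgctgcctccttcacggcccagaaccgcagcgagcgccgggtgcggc
Stab2: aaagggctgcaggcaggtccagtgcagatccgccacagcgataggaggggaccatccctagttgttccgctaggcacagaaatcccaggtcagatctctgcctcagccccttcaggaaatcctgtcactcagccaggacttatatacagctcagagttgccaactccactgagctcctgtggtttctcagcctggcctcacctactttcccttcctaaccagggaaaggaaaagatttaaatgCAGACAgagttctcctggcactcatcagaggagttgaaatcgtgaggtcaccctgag
Pros1: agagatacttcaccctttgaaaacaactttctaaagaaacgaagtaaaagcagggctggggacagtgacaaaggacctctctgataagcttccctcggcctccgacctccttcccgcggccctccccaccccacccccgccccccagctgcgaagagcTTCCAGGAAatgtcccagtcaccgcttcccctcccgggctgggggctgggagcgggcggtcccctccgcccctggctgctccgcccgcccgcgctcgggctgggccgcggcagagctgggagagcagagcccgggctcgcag
In Timd4 the CAGACA matches start at -230 and -9 from the start of transcription and the interferon response element type match at -77. In Gas6 the match (on the other strand) starts at -216, in Stab2 at -7, and the STAT type match of Pros1 at -92. Axl and Mfge8 each hold 1 PU.1 type match (at -130 and -220). Tyro3 and Mertk hold none of the 6 patterns in this window. A match describes letters and is not a measured binding site.

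The genes themselves are spread over the genome (GENCODE M39 on GRCm39). Mertk lies at chr2:128540729-128645080 (plus strand, 19 exons) and Tyro3 on the same chromosome at chr2:119628214-119648738 (plus, 19 exons). Axl (chr7:25456535-25488329, minus, 20 exons) and Mfge8 (chr7:78783515-78798825, minus, 9 exons) are both on chromosome 7. Gas6 is at chr8:13515371-13544824 (minus, 15 exons), Pros1 at chr16:62674275-62749710 (plus, 15 exons), Timd4 at chr11:46701620-46735177 (plus, 9 exons) and Stab2 at chr10:86675054-86843889 (minus, 69 exons). Counts were over whole genes, so exons, introns and UTRs were not told apart.

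Genes with the most similar course were sought among 9590 others by the root mean square difference of centred log2 CPM over the 12 libraries. For Pros1 these were Mrc1 (0.0661), the mannose receptor gene of macrophages, Add3 (0.0772) and Elovl7 (0.0853), against a spread of Pros1 itself of 0.581. Axl was closest to Zfp598 (0.0461), Irak1 (0.0469), a kinase of Toll-like receptor signalling, and Pogz (0.0499), against a spread of 0.251. Mertk was closest to Rexo1 (0.0493), and Mfge8 to Eif2d (0.0369). Timd4 was closest to St3gal5 (0.362), Ahrr (0.374) and Gas7 (0.377), against a spread of 2.62. The nearest genes of Tyro3, Gas6 and Stab2 were at 0.511 or more. All 4 scarce genes, Timd4 included, had few counts or none with TGFβ, and the part of that in these values was not tested. Within the 8 genes, Mertk and Mfge8 were the most alike (0.139) and Axl and Timd4 the least (2.86).

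Other genes of the uptake pathway were read from 9 lists with 85 names, of which 84 were in the table and 77 were tested; the absent name, Vps34, is an older one for Pik3c3, which was also listed. Most of the calls with TGFβ were decreases. TGFβ without Pam3 gave 14 higher and 41 lower calls of 77 (71.4% called, beside 51% of all tested genes), and with Pam3 14 higher and 35 lower (63.6%, beside 45.3%). Pam3 without TGFβ gave 12 higher and 13 lower (32.5%, beside 18.3%), and with TGFβ 24 higher and 23 lower (61.0%, beside 38.5%). Without the 3 libraries of differing RNA composition these counts of calls were 51, 48, 20 and 44, beside 44.9%, 41%, 13.5% and 35.3% of the 14983 genes tested in that setting. The calls lost were 4 for TGFβ without Pam3 (Havcr1, Itgav, Itgb3 and Rac1), 1 with Pam3 (Elmo1), 6 for Pam3 without TGFβ (Abca7, Arhgap25, Ppard, Rac2, Rxrb and Vav1) and 3 with TGFβ (Dock1, Elmo1 and Rab7), and Ucp2 gained a call for Pam3 without TGFβ. Counts of lower calls with TGFβ include genes that, like the scarce ones above, passed the filter through groups without TGFβ (among them Thbs1, Havcr1 and the C1q genes), so these counts support nothing about the lists. A few genes named in what follows stand outside the rule for naming genes and were chosen after their values were seen.

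**Figure D4:**
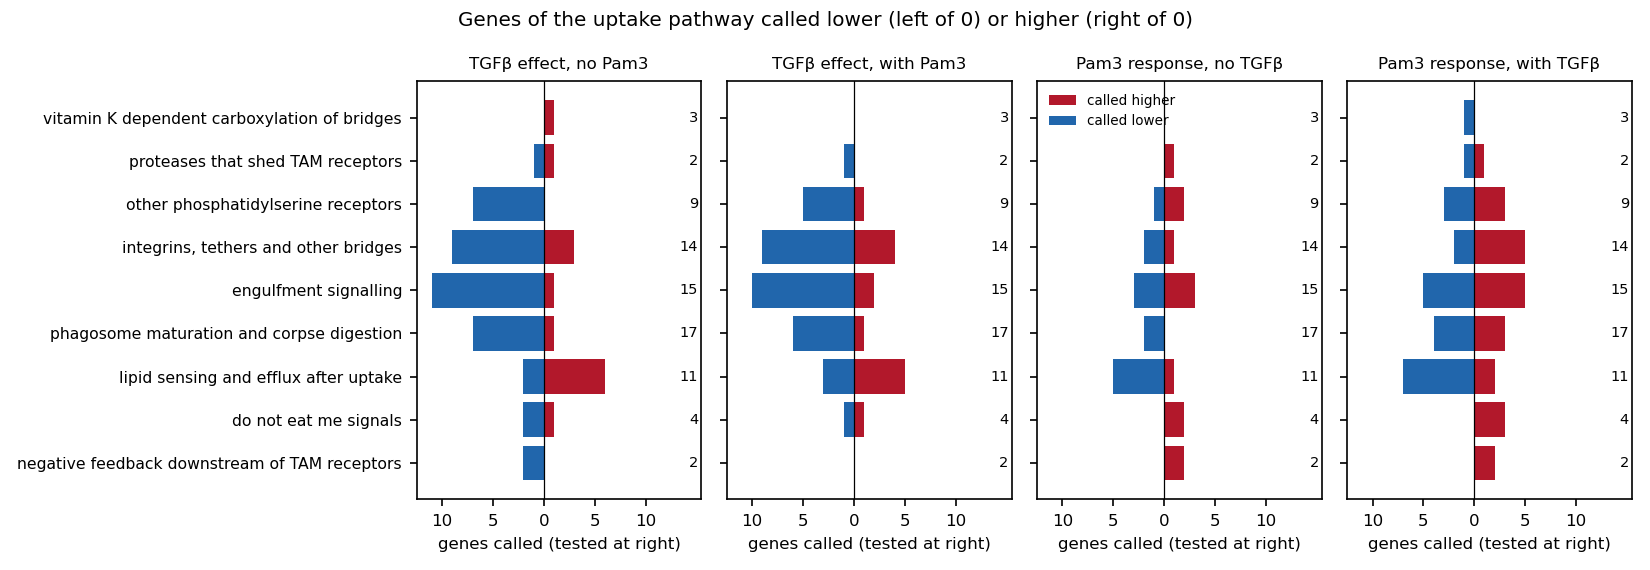
Number of genes per pathway list called lower (left, blue) or higher (right, red) in 4 comparisons, with the number tested at the right edge of each panel. The engulfment signalling list had 11 of 15 genes called lower with TGFβ alone and 10 of 15 when it was added to Pam3, where 28.1% and 23.8% of all tested genes were lower.

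The list of other phosphatidylserine receptors had 11 genes, of which 9 were tested. It holds Ptdss1, the gene of an enzyme that makes the lipid and no receptor, which was not called. TGFβ alone lowered 7 of the 9 and raised none, beside 28.1% lower and 22.9% higher among all tested genes. The 7 include Havcr1, which passed the filter through groups without TGFβ, so the count is not read as a result about this list. The call of Havcr1 was lost without the 3 libraries of differing RNA composition. Stab1, the gene of stabilin-1, a relative of stabilin-2, had means of 7.49 CPM untreated, 2.88 with TGFβ, 19.3 with Pam3 and 28.8 with both, and its interaction was 1.95 (SE 0.199, adjusted p 2.29e-07). Trem2, a lipid receptor of macrophages, had means of 94.5, 62.1, 57.0 and 42.5 CPM in that order and fell in each of the 4 comparisons. The immune receptor gene Cd300lb fell with TGFβ by 0.48 without and by 1.00 with Pam3 (interaction -0.51). Havcr1, the gene of TIM-1 near Timd4 on chromosome 11, was at 0.154 and 0.529 CPM without TGFβ and had no count with it.

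Of the 15 integrins, tethers and other bridges, 14 were tested, with 3 called higher and 9 lower under TGFβ alone (22.9% and 28.1% of all tested genes). The lower calls include the C1q genes, Thbs1 and Itgb3 (0.952 to 0.233 CPM), all scarce with TGFβ, so the count is no result about this list. Itgb5, the β5 integrin chain that pairs with αv to receive Mfge8, rose from 56.3 CPM untreated to 322 with TGFβ (log2 fold change 2.51, SE 0.0491) and from 45.3 with Pam3 to 145 with both (1.68). Its Pam3 response was lower with TGFβ (interaction -0.83). The others that rose with TGFβ alone were Itgav (83.6 to 93.4 CPM), the αv chain itself, and Scarb1 (255 to 288 CPM). The calls of Itgav and Itgb3 were lost without the 3 libraries of differing RNA composition. The complement C1q genes, whose product tethers dying cells, were also near 0 with TGFβ: C1qc had means of 3.08, 0.00823, 3.59 and 0.0418 CPM in untreated, TGFβ, Pam3 and Pam3+TGFβ cells, and C1qb of 8.38, 0.0699, 8.87 and 0.0462. Thbs1, the thrombospondin bridge, stood at 4.21, 0.1, 22.8 and 0.0517 CPM, with a wide spread in Pam3 cells (SD 14.5, n = 3). Anxa1, which encodes a protein exposed on and secreted around dying cells, fell from 806 to 455 CPM with TGFβ.

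Engulfment signalling genes, which couple these receptors to the actin skeleton, had 11 of 15 tested members lower and 1 higher with TGFβ alone (median -0.50), beside 28.1% and 22.9% of all tested genes. When TGFβ was added to Pam3, 10 were lower and 2 higher (median -0.53), beside 23.8% and 21.5%. The largest decrease was that of Gas7, from 87.1 to 1.49 CPM (log2 fold change -5.87, SE 0.104), and 143 to 3.92 CPM with Pam3 also present. Dock2, a Rac activator, fell from 513 to 313 CPM. Rhog, a small GTPase upstream of Rac, was the 1 gene that rose with TGFβ alone (0.18). Vav1, another Rac activator, rose with Pam3 in both settings (0.15 without and 0.39 with TGFβ). Its call without TGFβ was lost when the 3 libraries of differing RNA composition were left out.

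For the phagosome and corpse digestion genes, 17 of 19 were tested, and TGFβ alone lowered 7 and raised 1, so that 8 of 17 were called, beside 51% of all tested genes, and the count is no result about this list. Ctsl, a lysosomal protease, fell from 499 to 193 CPM, and Lipa, the lysosomal acid lipase, from 1535 to 890 CPM. The gene that rose was Slc7a7, an amino acid exporter (21.5 to 48.1 CPM). Lipid sensing and efflux genes had 6 of 11 higher and 2 lower under TGFβ alone (22.9% and 28.1% of all tested genes), and 5 higher and 3 lower when TGFβ was added to Pam3 (21.5% and 23.8%). Those higher with TGFβ alone include Mylip (32.5 to 73.5 CPM) and Pparg (117 to 225 CPM). Pam3 lowered 5 of these 11 without TGFβ and 7 with it (8.66% and 18.1% of all tested genes were lower). Without the 3 libraries of differing RNA composition, Abca7, Ppard and Rxrb lost their call for Pam3 without TGFβ and Ucp2 gained one. The cholesterol exporter gene Abca1 rose to 192 CPM with Pam3 and 413 with both, from 107 in untreated cells (interaction 0.62).

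Proteases and feedback genes that act on TAM receptors were few. Adam17, a protease that sheds Mertk and Axl, rose with Pam3 by 0.46 without TGFβ (293 to 404 CPM, SE 0.0493) and by 0.72 with it (216 to 358 CPM), and it fell with TGFβ by 0.44 without Pam3 and by 0.18 with it. Adam10, the other such protease, rose with TGFβ alone (0.21) and fell with Pam3 in TGFβ cells by 0.41. Socs1 and Socs3, which TAM signalling can induce in dendritic cells and which Toll-like receptors induce as well, both fell with TGFβ alone (-1.62 and -2.10) and rose with Pam3, by 1.40 and 1.33 without TGFβ and 3.19 and 3.30 with it. Twist1 and Twist2, listed with them, did not pass the filter on low counts. The carboxylation genes that activate Gas6 and protein S are too few for a count to be read: of Ggcx, Vkorc1 and Vkorc1l1, TGFβ raised Vkorc1l1 (3.51 to 5.81 CPM) and Pam3 in TGFβ cells lowered Vkorc1 by 0.29, and no other call was made for them. Of the signals that restrain uptake, Cd47 rose with TGFβ (0.58) and with Pam3 (0.30), and Pirb fell with TGFβ from 574 to 172 CPM.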

How the data were processed

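Polyadenylated RNA of FLAMs was sequenced in 12 libraries (4 groups of 3). Per the labels' protocols, libraries came from a stranded mRNA kit, and the authors aligned reads to GRCm39 with Bowtie2 2.4.1 and counted them per gene with featureCounts of Subread 2.0.0. The annotation, strand setting and handling of multiply mapped reads are not given in the sources used here. Bowtie2 does not split reads across introns, so reads over exon junctions can be lost. The main tests used the deposited raw counts. The normalized signal deposited by the authors, counts divided by a constant per library, served for an alternative. Every column was mapped to a sample by its name (0 left unmapped).

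Genes passing filterByExpr of edgeR 4.0.16 (R 4.3.3) at a minimum count of 10 numbered 14749 of 40847. The quasi-likelihood test of edgeR (robust, TMM scaling) was fitted to the 12 libraries with 4 group means. Benjamini-Hochberg adjusted p-values over all tested genes were called under 0.05, and an adjusted p printed without a tool is from this fit. SE is the size of the log2 fold change divided by the root of F. The procedure was tested on simulated counts. CPM per kb uses union exon length in GENCODE M39. Folds of scarce genes are ratios of depth-scaled summed counts with 95% intervals, or against a floor of 3 counts per library where a group had none. The 8 genes, the pathway and marker lists and the tests were chosen with earlier results of these data known. The naming rule takes all 8 genes, from each pathway list the called gene with the largest change per comparison and direction, and the 3 genes most like each of the 8 with a mean of at least 5 CPM. Alternatives were DESeq2-type and upper-quartile scaling, DESeq2 1.42.0, limma 3.58.1 on log2 of the deposited signal plus 1, other filters, a replicate block, glmTreat beyond a log2 change of 0.5, fitting the compared libraries by themselves and leaving out each library. Added after seeing the data were leaving out 3 libraries of differing RNA composition and the ribosomal share as a covariate. Without those 3 libraries the ribosomal share went with group.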

Additional observations from a re-analysis of the deposited data

Results flagged for a closer look

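By the edgeR interaction test, 2 of the 8 genes answered Pam3 unequally in the presence and absence of TGFβ, where 15.9% of all tested genes had such a call. Neither was called when only changes beyond 0.5 on the log2 scale were tested for, and Tyro3 lay just short of a call (3.10, adjusted p 0.0503). For Mertk the difference was 0.25 on the log2 scale (adjusted p 0.00831): all 3 Pam3 libraries lay below the untreated ones, and the Pam3+TGFβ libraries overlapped those of TGFβ alone. It fell to 0.17 (adjusted p 0.211) without the 3 libraries of differing RNA composition, a fit in which composition and group cannot be told apart. For Pros1 the difference was -0.32 (adjusted p 0.00470), with Pam3 below its control in every library of both settings, and it was -0.31 at the weakest of the alternatives that left out no single library. What sets either difference was not tested.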

How the results depend on the processing

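Over 1190 values of the 8 genes under alternative settings, 1143 kept their side of the threshold, 32 lost a call, 15 gained one and 0 called values changed sign. Calling only changes beyond 0.5 on the log2 scale left 0 of the 8 genes for Pam3 without TGFβ, 1 for Pam3 with TGFβ, 4 for TGFβ without Pam3, 3 for TGFβ with Pam3, 0 for the interaction, 4 for both agents against untreated and 4 for TGFβ against Pam3 (307, 1388, 2487, 2155, 466, 2807 and 2871 of all genes). Requiring 10 counts in every library left 4 of the genes testable, since the scarce genes were not tested. TGFβ without Pam3, TGFβ with Pam3 and both agents against untreated then gave 3 calls each, and TGFβ against Pam3 gave 4. Pam3 gave 4 calls without TGFβ and 2 with it. These counts are not set beside the share of all genes called in that setting, so nothing about the 8 genes is read from them. The count for the interaction, 2 with all libraries beside 15.9% of all tested genes, ran from 1 (without TGFβ replicate 1) to 4 (without TGFβ replicate 2). It was 1 without the 3 libraries of differing RNA composition. Such small counts are no result about the 8 genes. The TGFβ effect with Pam3 on the Gas6 to Pros1 ratio became 0.16 (exact p 0.3) with 1 CPM added to each gene. The labels do not say that replicate numbers pair libraries. Residual correlations were over 0.1 in 12 of 18 same-numbered pairs (-0.43 to 0.50, median 0.22) and in 13 of 36 others (median -0.098). All 3 same-numbered pairs were over 0.1 between Pam3 and Pam3+TGFβ and between untreated and Pam3+TGFβ, but not between the other groups, so the pairing is unsettled. A replicate block ended 1 call, that of Tyro3 for TGFβ with Pam3 (-1.60, adjusted p 0.0691), and changed no other. Depth limits Tyro3, Gas6, Timd4 and Stab2, where a group held 0 to 30 counts in sum with TGFβ.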
